A study of Mus musculus with 5 samples.

Results

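The interleukin 1 and inflammasome genes described here are 10 genes picked by name from a table of read counts: Il1a, Il1b, Il18, Il1rn, Il1rap, Nlrp3, Pycard, Casp1, Casp4 and Gsdmd. All 10 symbols were found among the 21983 genes listed, and all 10 passed the filter on low counts that left 12543 genes for testing. The samples are primary mouse microglia, macrophages that live in the brain, profiled by RNA sequencing, and the question is which processes differ when Ythdf2, a reader of N6-methyladenosine in mRNA, is lost. Libraries of the genotype Cx3cr1CreERT2 Ythdf2fl/fl, called labelled knockout here, number 2, and those of the control genotype Ythdf2fl/fl number 3. Every library thus carries the floxed Ythdf2 alleles, in which loxP sites flank the part to be removed. The labelled knockouts carry in addition a Cre recombinase that is driven from Cx3cr1, a gene of microglia and related myeloid cells, and that works in the presence of tamoxifen. Effects of the Cre, of the Cx3cr1 allele and of Ythdf2 loss cannot be told apart in this design. The labels give no age, sex, tamoxifen schedule or stimulus, and do not say whether libraries come from separate animals, so the p-values speak only of variation among these 5 libraries, which may be technical.

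Interleukin 1 alpha and beta are cytokines that act on the same receptor, which pairs a ligand-binding chain with the accessory protein encoded by Il1rap. The receptor antagonist encoded by Il1rn occupies that receptor without signalling. Interleukin 1 beta and interleukin 18 are made as inactive precursors, and inflammasomes release them: a sensor such as NLRP3 gathers the adaptor ASC, encoded by Pycard, which activates caspase 1. Caspase 1 cuts both precursors and also gasdermin D, whose fragment forms pores in the membrane, while caspase 4 (also known in the mouse as caspase 11) detects lipopolysaccharide in the cytosol and cuts gasdermin D as well. Il1b and Nlrp3 are known as genes that macrophages and microglia transcribe after a priming signal through NF-kB, and Casp1 and Casp4 as genes that interferon raises.

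Il1a and Il1b are neighbours on chromosome 2, on the minus strand, with 54.6 kb between them (GRCm38, GENCODE M21). Il1a lies at 129299610 to 129309972 (ENSMUSG00000027399.1) and Il1b at 129364570 to 129371139 (ENSMUSG00000027398.13). Il1rap lies on chromosome 16 at 26581704 to 26730117 (plus strand, ENSMUSG00000022514.14). The sequences around their start sites are shown because their values parted in 1 library, labelled knockout 1, which held no read of Il1b, a level of Il1a inside the range of the controls, and more Il1rap than any other library. Each window runs from 250 bases before to 50 bases after the RefSeq start (GRCm38.p6), 5′ to 3′ on the gene's strand, and capitals mark matches to the motifs searched. The windows are chr2:129309923-129310222 for Il1a, chr2:129371090-129371389 for Il1b and chr16:26581455-26581754 for Il1rap.
Il1a: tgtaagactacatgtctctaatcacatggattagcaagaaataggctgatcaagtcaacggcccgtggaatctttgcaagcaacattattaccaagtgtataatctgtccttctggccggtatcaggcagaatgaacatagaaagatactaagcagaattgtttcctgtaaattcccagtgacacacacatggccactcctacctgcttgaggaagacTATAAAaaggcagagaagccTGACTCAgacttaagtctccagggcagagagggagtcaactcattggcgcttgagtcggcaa
Il1b: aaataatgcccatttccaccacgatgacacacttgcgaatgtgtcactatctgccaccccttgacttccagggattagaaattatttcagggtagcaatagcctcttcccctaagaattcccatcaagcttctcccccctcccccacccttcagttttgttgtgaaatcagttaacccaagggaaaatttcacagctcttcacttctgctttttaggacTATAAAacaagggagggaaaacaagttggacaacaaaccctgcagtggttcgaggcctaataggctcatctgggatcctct
Il1rap: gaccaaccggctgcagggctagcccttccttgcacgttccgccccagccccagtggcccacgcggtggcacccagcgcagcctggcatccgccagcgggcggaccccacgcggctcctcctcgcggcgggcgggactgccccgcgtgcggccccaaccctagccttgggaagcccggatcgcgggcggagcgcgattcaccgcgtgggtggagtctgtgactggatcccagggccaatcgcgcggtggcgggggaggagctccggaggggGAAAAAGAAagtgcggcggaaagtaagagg

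The motifs, searched on both strands, were TATAAA for a TATA box, TGANTCA for AP-1, GGGNNTTTC for NF-kB, TTGCNNAA for C/EBP and GAAANNGAA for the interferon-stimulated response element. Il1a and Il1b each hold a TATA box, beginning 32 and 31 bases before the start, which 13.6% of all 32851 RefSeq windows of this length hold on either strand. Among the other members, Il18 and a window of Il1rn held the same match on the opposite strand (TTTATA). Il1a also holds an AP-1 match (TGACTCA) 12 bases before its start, as 7.81% of all windows do. The capitals in Il1rap are a match to the interferon element, which 8.56% of windows hold, and this window has no TATAAA. At least 1 NF-kB match stands in 4.36% of all windows and, among the members, in windows of Casp4, Il18 and Il1rn. Only Casp4 had 2 in a window. Il1rn also had an AP-1 match. Il1b and Nlrp3 had no NF-kB match, and Casp1 and Casp4 had no match to the interferon element. C/EBP matches stand in 10.8% of windows and, among the members, in that of Pycard. Windows were found for 9 of the 10 members, 13 windows in all, and such a match describes letters and not binding.

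Gene counts summed to between 13947500 and 19577217 per library, and 13991 to 14673 genes had at least 1 count. Ythdf2 was not lower where it should have been deleted: it stood at 103.5 and 126.8 CPM (read counts scaled to a common library size) in labelled knockouts 1 and 2 and at 57.0, 69.2 and 68.8 CPM in controls 1, 2 and 3. Counts here cover the whole gene, the exons that stay after recombination included, and cannot show whether the floxed part is gone. Directions below are therefore those of libraries labelled knockout. Labelled knockout 1 stands apart for the genes described here and for interferon-stimulated genes, and control 3 for the latter, so values without a library are given where leaving it out moves a result.

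None of the 10 genes passed the test between the groups. In edgeR's quasi-likelihood test 0 of 10 had an adjusted p under 0.05 (0% of all genes tested did), in DESeq2 0 of 10 (1.68% of all genes with an adjusted value) and in limma-voom 0 of 10 (0%). At an unadjusted p under 0.05 edgeR gave 1 of 10, Nlrp3, against 6.68% of all genes. The log2 fold change, labelled knockout minus control, was negative for 7 members and positive for 3, with a median of -0.71, while over all 12543 genes 6130 were negative and 6413 positive with a median of 0.013. For 3 members, Il1b, Il1rn and Nlrp3, both libraries labelled knockout lay below every control, as for 10.4% of all genes, and for 0 members both lay above, against 9.85%. The count of 3 rests on how labelled knockout 2 behaves: with that library left out 8 members lay below every control and 1 above. With labelled knockout 1 left out 3 lay below and 3 above. These are counts of 1 library against 3, which separates more easily than 2 against 3. Shares over all genes were not computed for them, so they cannot be read against 10.4% and 9.85%. The median was -0.19 without labelled knockout 1, -1.53 without labelled knockout 2 and -0.17 without control 3.

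**Figure D1:**
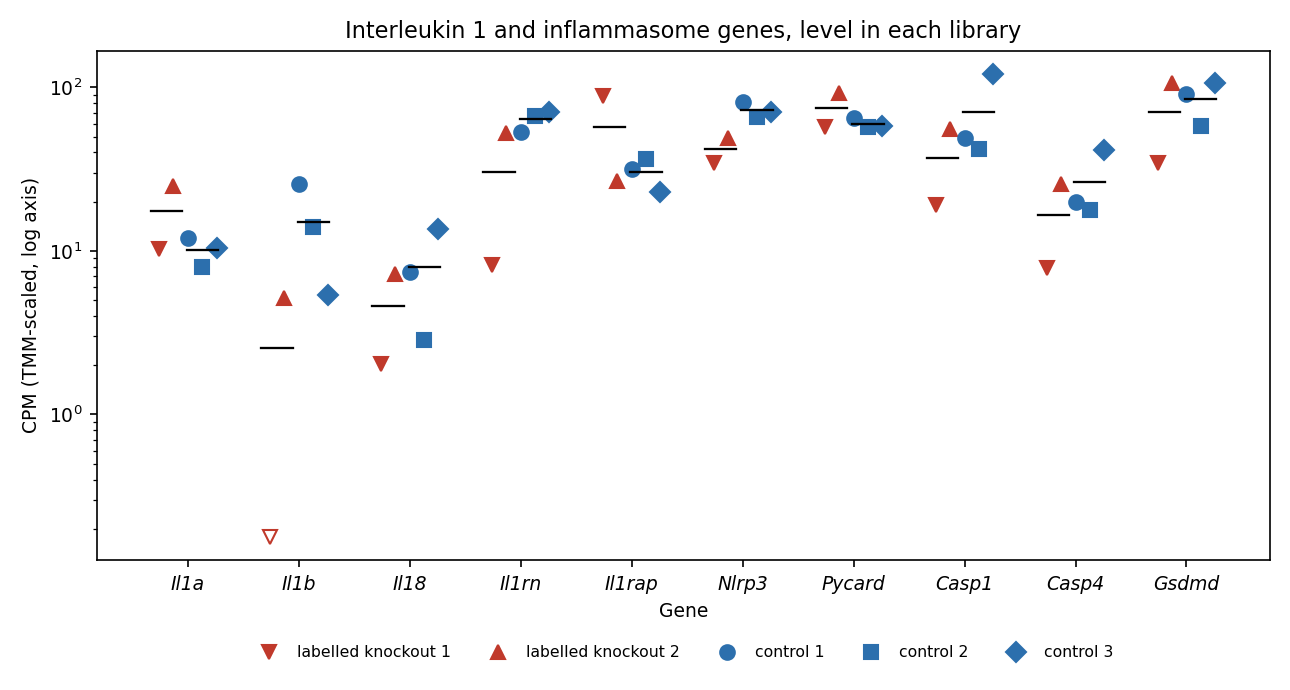
CPM of the 10 genes in each of the 5 libraries on a log axis, with a black line at each group's mean; red triangles are the libraries labelled knockout and blue symbols the controls. The open triangle marks Il1b in labelled knockout 1, where no read was counted, drawn at the level of 3 reads (0.178 CPM).

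Il1b, the inducible cytokine of the pathway, had the widest spread. It was counted 0 times in labelled knockout 1 and 95 times in labelled knockout 2, against 410, 221 and 72 times in controls 1, 2 and 3. On the scaled axis these are 0 and 5.13 CPM, with controls at 25.8, 14.0 and 5.35 CPM, so labelled knockout 2 and control 3 lay almost at the same level. A count of 0 of 15743468 allows up to 3 reads, or 0.178 CPM, for counting error alone, and labelled knockout 2 stood at 28.8 times that limit. The group means were 2.57 ± 3.63 CPM (SD, n = 2) and 15.0 ± 10.2 CPM (SD, n = 3), which gave -2.53 as the log2 fold change (SE 1.34; 95% interval -5.83 to 0.76; edgeR adjusted p = 0.868). Labelled knockout 2 lay only just below control 3, and the interval includes 0. The log2 fold change was -1.58 without labelled knockout 1, -4.13 with the replicate number as a block and -4.94 in limma-voom. In the block fit control 3, the control closest to labelled knockout 2, stands alone in its block and does not enter the group difference.

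Il1a, its neighbour, did not share this pattern. It stood at 10.2 and 25.0 CPM in labelled knockouts 1 and 2 and at 12.005, 7.98 and 10.4 CPM in the controls, so labelled knockout 2 was above every other library and labelled knockout 1 within the controls. The log2 fold change of 0.80 (SE 0.443; 95% interval -0.30 to 1.89; edgeR adjusted p = 0.874) became 0.014 without labelled knockout 2 and 1.27 without labelled knockout 1. Within a library, Il1b and Il1a counts can be set against each other with no scaling: Il1b reads were 2.15, 1.75 and 0.514 times the Il1a reads in controls 1, 2 and 3, 0.206 times in labelled knockout 2, and 0 of Il1b beside 172 of Il1a in labelled knockout 1. On the log2 scale with 0.5 added to each count the ratio was -8.43 and -2.28 in labelled knockouts 1 and 2 and -0.95 in control 3, and above 0 in controls 1 and 2, at 0.81 in control 2. The groups did not overlap (exact permutation test, two-sided, p = 0.2, the smallest that 2 against 3 libraries can give; 0.4 after adjustment over the 7 ratios computed). Exons of Il1a share 222 bases, 11.2% of their length, with the antisense gene Gm14023, and since the use of strand in counting is not given, its reads cannot be separated.

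Il18, the other cytokine that caspase 1 matures, was low and variable. It was at 2.02 and 7.24 CPM in labelled knockouts 1 and 2 and at 7.48, 2.85 and 13.7 CPM in the controls, with overlapping groups. Its log2 fold change, -0.78 (SE 0.811; edgeR adjusted p = 0.925), was -0.16 without labelled knockout 1, -1.97 without labelled knockout 2 and -0.15 without control 3. Control 3, the highest for Il18, was the lowest control for Il1b.

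Il1rn, which encodes the receptor antagonist, was far lower in labelled knockout 1 than elsewhere. It stood at 8.15 CPM in labelled knockout 1 and 52.9 CPM in labelled knockout 2, against 53.6, 66.9 and 70.5 CPM in the controls. Labelled knockout 2 lay just under the lowest control, and labelled knockout 1 was 6.49-fold lower than labelled knockout 2. With means of 30.5 ± 31.6 CPM (SD, n = 2) and 63.7 ± 8.95 CPM (SD, n = 3), the log2 fold change was -1.06 (SE 0.720; 95% interval -2.84 to 0.72; edgeR adjusted p = 0.893), with -0.30 without labelled knockout 1 and -2.97 without labelled knockout 2. The balance of agonist and antagonist went 2 ways. The log2 ratio of Il1b to Il1rn was -8.10 and -3.36 in labelled knockouts 1 and 2 and -1.05, -2.25 and -3.71 in the controls, so it overlapped between groups (exact permutation test, two-sided, p = 0.4; adjusted over the 7 ratios 0.4). The log2 ratio of Il1a to Il1rn was 0.33 and -1.08 against -2.15, -3.06 and -2.76, higher in both libraries labelled knockout than in any control (exact permutation test, two-sided, p = 0.2, again the smallest possible; adjusted 0.4). Reads of Il1a exceeded those of Il1rn only in labelled knockout 1, at 172 against 137.

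**Figure D2:**
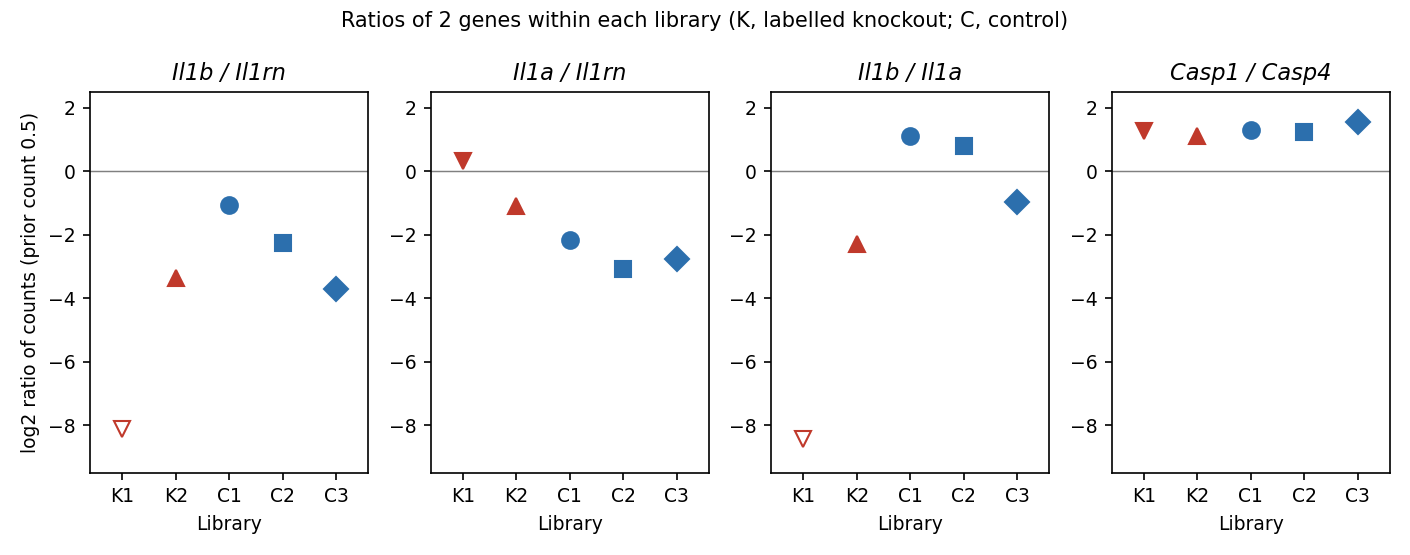
Log2 ratio of the counts of 2 genes within each library, with 0.5 added to each count, for labelled knockouts 1 and 2 (K1, K2, red) and controls 1 to 3 (C1 to C3, blue). Open symbols have 0 reads of Il1b; the Casp1 to Casp4 ratio stayed between 1.12 and 1.55 in all libraries while the other 3 ratios spread more widely.

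Il1rap, the signalling partner in the receptors for interleukin 1, interleukin 33 and interleukin 36, went the other way in labelled knockout 1. It was at 88.4 CPM there and at 26.6 CPM in labelled knockout 2, against 31.7, 36.6 and 23.0 CPM in the controls. Labelled knockout 2 thus lay inside the range of the controls, and labelled knockout 1 was at 2.91 times their mean. The log2 fold change of 0.92 (SE 0.510; 95% interval -0.34 to 2.18; edgeR adjusted p = 0.874) turned to -0.22 without labelled knockout 1 and was 1.54 without labelled knockout 2. Exons of Il1rap share 552 bases, 4.86% of their length, with the antisense gene Gm20319.

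Nlrp3, the sensor that responds to potassium efflux and membrane damage, had the smallest standard error among the members. It stood at 34.6 and 49.0 CPM in labelled knockouts 1 and 2 and at 81.4, 66.1 and 70.8 CPM in the controls, with no overlap. The means were 41.8 ± 10.2 CPM (SD, n = 2) and 72.7 ± 7.84 CPM (SD, n = 3), and the log2 fold change was -0.80 (SE 0.242; 95% interval -1.40 to -0.21). It did not pass after adjustment over all genes (edgeR adjusted p = 0.568, unadjusted p = 0.0167; adjusted p from 0.252 to 1 over the alternatives, 0.335 in DESeq2), and the log2 fold change ran from -1.07 to -0.60 with each library left out in turn. Nlrp3 lies on chromosome 11 at 59541568 to 59566956 (plus strand, ENSMUSG00000032691.14), and its exons overlap those of no other annotated gene.

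Pycard, which encodes the ASC adaptor, was the most even of the members among the controls. It was at 57.2 and 93.1 CPM in labelled knockouts 1 and 2 and at 65.2, 57.3 and 57.8 CPM in the controls, so that only labelled knockout 2 stood above them. For Pycard the log2 fold change of 0.32 (SE 0.260; 95% interval -0.32 to 0.96; edgeR adjusted p = 0.921) was -0.072 without labelled knockout 2 and 0.60 without labelled knockout 1. Exons of Pycard share 485 bases, 12.8% of their length, with the antisense gene Gm45205.

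Casp1 and Casp4 moved side by side from library to library. Casp1 was at 19.1 and 55.3 CPM in labelled knockouts 1 and 2 and at 48.8, 42.0 and 121 CPM in the controls. Casp4 was at 7.85 and 25.5 CPM, with controls at 19.9, 17.9 and 41.2 CPM. For both, labelled knockout 1 was the lowest library and control 3 the highest, and labelled knockout 2 lay among the controls. The log2 fold changes were -0.92 (SE 0.645; edgeR adjusted p = 0.905) for Casp1 and -0.65 (SE 0.613; edgeR adjusted p = 0.924) for Casp4. Casp1 had -0.38 without labelled knockout 1, -1.89 without labelled knockout 2 and -0.29 without control 3, and Casp4 -0.071, -1.74 and -0.18.

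The log2 ratio of Casp1 to Casp4 was 1.28 and 1.12 in labelled knockouts 1 and 2 and 1.29, 1.23 and 1.55 in the controls (exact permutation test for the group difference, two-sided, p = 0.4; adjusted 0.4). The 2 genes are adjacent on chromosome 9, on the plus strand, with 1562 bases between them: Casp1 at 5298517 to 5307265 (ENSMUSG00000025888.5) and Casp4 at 5308828 to 5336783 (ENSMUSG00000033538.13). The root mean square distance between their log2 CPM profiles, each centred over the 5 libraries, was 0.14, the smallest of the 45 pairs of members, and 7 of 8525 other genes lay nearer to Casp1. Il1a and Il1b, the other adjacent pair, had a distance of 2.71. For Il1b distances depend on the prior count of 2, since 1 library had no read.

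Gsdmd, the pore former that both caspases cut, followed the caspases in labelled knockout 1 but less in control 3. It stood at 34.4 and 107 CPM in labelled knockouts 1 and 2 and at 91.8, 58.2 and 106 CPM in the controls. Labelled knockout 1 was the lowest library, and labelled knockout 2 was level with control 3 at the top. The log2 fold change of -0.27 (SE 0.517; 95% interval -1.55 to 1.01; edgeR adjusted p = 0.945) became 0.30 without labelled knockout 1, -1.31 without labelled knockout 2 and -0.084 without control 3. Gsdmd lies on chromosome 15 at 75862327 to 75867408 (plus strand, ENSMUSG00000022575.5), with no exon overlap.

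**Figure D3:**
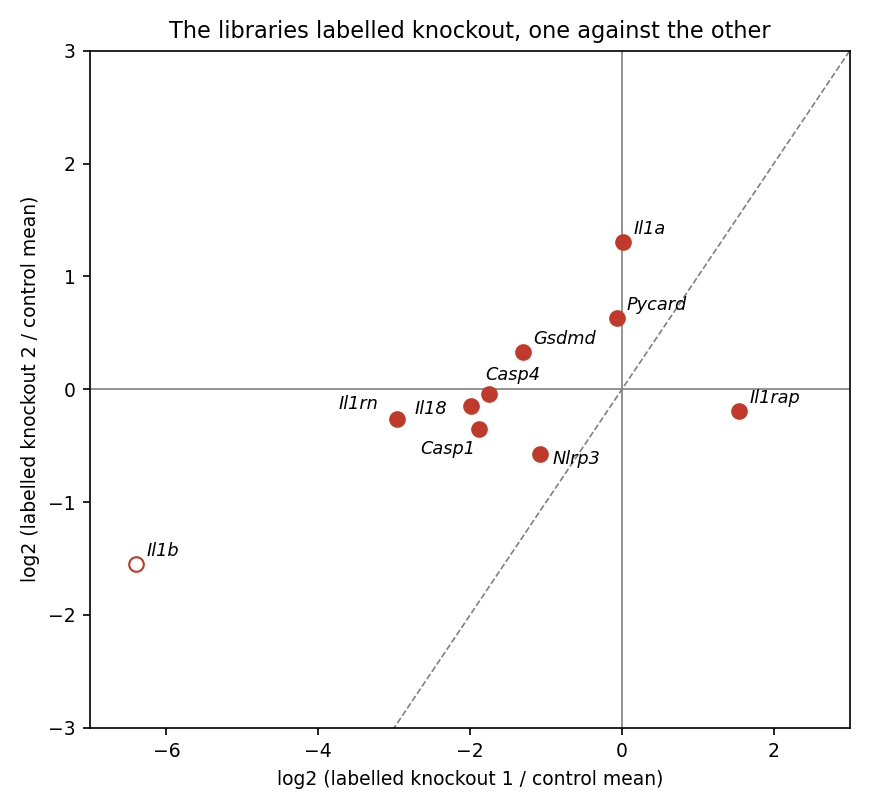
Each gene's log2 ratio to the mean of the controls in labelled knockout 1 (horizontal) and labelled knockout 2 (vertical); the dashed line marks equal values. All genes but Il1rap lie above the dashed line, that is, higher in labelled knockout 2, and the open circle is Il1b, set at 3 reads in labelled knockout 1.

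Most members differed widely between the 2 libraries labelled knockout. Labelled knockout 1 was below labelled knockout 2 for 9 of the 10 members, Il1rap being the exception, where 51.3% of all genes tested were. It was the lowest of the 5 libraries for 8 members, where this held for 33.1% of all genes. It was the highest for 1 member, against 30.3% of all genes. Labelled knockout 2 was the lowest for 0 members, against 17.0% of all genes. It was the highest for 3, namely Il1a, Pycard and Gsdmd, against 21.1% of all genes. Besides Il1b and Il1rn, the gap between these libraries was 3.58-fold for Il18, 3.25-fold for Casp4, 3.11-fold for Gsdmd, 2.90-fold for Casp1 and 2.44-fold for Il1a. It was smallest for Nlrp3, at 1.42-fold, and for Pycard, at 1.63-fold. In bulk RNA, fewer cells expressing a gene and less RNA per cell cannot be told apart.

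Genes of 3 responses in which such genes are known to take part were read from the same libraries. The 12 interferon-stimulated genes summed to 431 and 1823 CPM in labelled knockouts 1 and 2 and to 1731, 1581 and 5084 CPM in controls 1 to 3. This is the order seen in Casp1 and Casp4, with labelled knockout 1 lowest and control 3 highest. All 12 had negative log2 fold changes, with a median of -1.36, and 0 were called by edgeR, DESeq2 or limma-voom (0 at an unadjusted p under 0.05 in edgeR). That median was -0.63 without labelled knockout 1, -3.11 without labelled knockout 2 and -0.67 without control 3, where 2 of the 12 turned positive. Irf7, which encodes a transcription factor of this response, stood at 51.5 and 390 CPM, with controls at 224, 156 and 1226 CPM. The 12 immediate early genes, which are transcribed within minutes of a stimulus, summed to 376 and 838 CPM, with controls at 1474, 1044 and 1174 CPM. As for Nlrp3, the groups did not overlap, and 7 of the 11 tested lay below every control, where 10.4% of all genes did. DESeq2 called 3 of these 11 lower, Fos, Egr1 and Dusp1, where 1.68% of all genes were called in either direction. In edgeR 0 were called and 6 had an unadjusted p under 0.05, against 6.68% of all genes. The 8 NF-kB feedback genes summed to 335 and 690 CPM, with controls at 763, 631 and 780 CPM, with 8 of 8 log2 fold changes negative, a median of -0.42, and overlapping sums. Without labelled knockout 1 these 8 were 4 positive and 4 negative, with a median of 0.0046, and without labelled knockout 2 the median was -1.41. The part of these responses in the levels of the members was not tested.

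**Figure D4:**
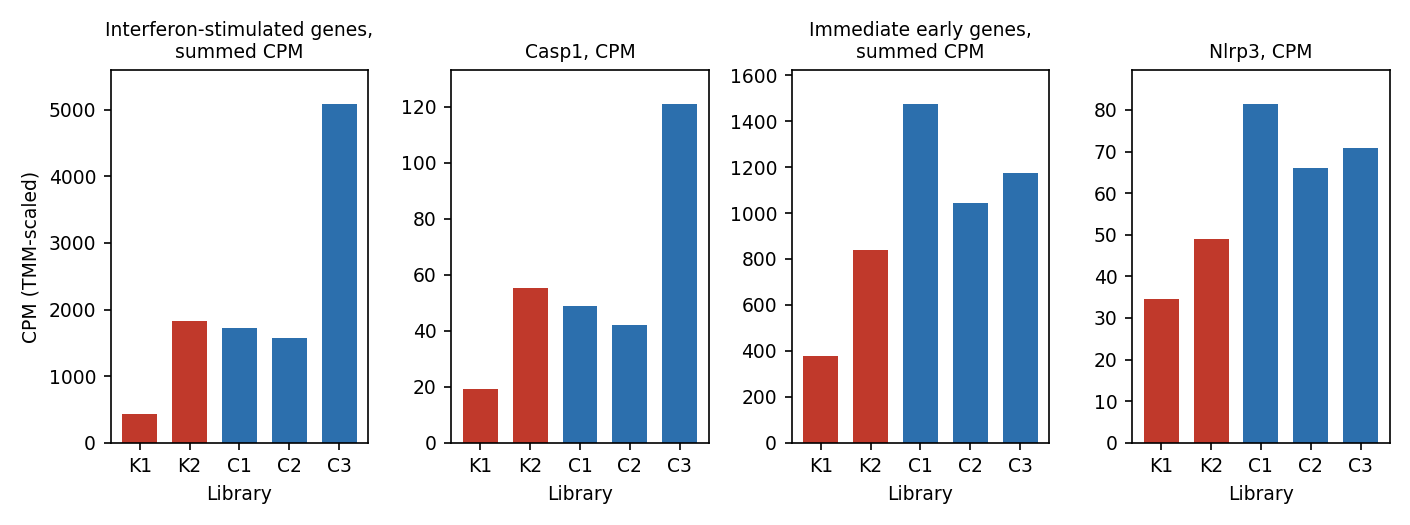
Summed CPM of 12 interferon-stimulated and 12 immediate early genes beside the CPM of Casp1 and Nlrp3 in labelled knockouts 1 and 2 (K1, K2, red) and controls 1 to 3 (C1 to C3, blue), on axes that start at 0. Casp1 and the interferon-stimulated genes were lowest in K1 and highest in C3, and Nlrp3 and the immediate early genes were lower in both libraries labelled knockout than in each control.

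Around the members, 51 of 52 further genes of the pathway were found in the table and 37 were tested. None of the 37 was called by edgeR, DESeq2 or limma-voom. At an unadjusted p under 0.05 edgeR gave 5 of the 37, against 6.68% of all genes. These were Il1rl1, Il1rl2, Sigirr, Nlrc4 and Naip1. Log2 fold changes were positive in 19 and negative in 18 with a median of 0.010, against 0.013 over all genes tested. The groups did not overlap for 8 of the 37: 6 were higher with the knockout label, where 9.85% of all genes were, and 2 lower, against 10.4%. Both directions together, the share was near that of all genes, with a larger share higher and a smaller share lower.

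Among the 9 receptors and decoys, 5 were tested, 2 with positive and 3 with negative log2 fold changes. Il1rl2, the binding chain for interleukin 36, was at 15.4 and 26.5 CPM, with controls at 11.4, 8.81 and 12.6 CPM and a log2 fold change of 0.94 (SE 0.342; edgeR adjusted p = 0.687). Sigirr, an inhibitory member of the receptor family, was at 1.19 and 2.43 CPM, with controls at 0.189, 0.697 and 0.223 CPM and a log2 fold change of 2.26 (SE 0.742; edgeR adjusted p = 0.5998). Neither gene overlapped between groups, and Sigirr was low throughout. The binding chain Il1r1, chosen for mention after its values were seen, had 0.223 to 1.13 CPM in all 5 libraries, and the decoy receptor Il1r2 had 0 counts in each. Il18bp, which encodes the secreted binder of interleukin 18, was at 76.9 CPM in control 3 and at 6.65 to 18.2 CPM in the other 4 libraries; it too was mentioned after its values were seen. Il18bp, Myd88 and Nek7 overlap annotated genes on the other strand, whose reads cannot be separated here.

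Of 6 other ligands, 1 was tested: Il33, an alarmin, at 55.9 and 14.9 CPM, with controls at 65.8, 58.9 and 16.1 CPM, with overlapping groups (log2 fold change -0.41, SE 0.758; edgeR adjusted p = 0.944), turning to 0.25 without labelled knockout 2. The 12 genes of receptor signalling, 7 with positive and 5 with negative log2 fold changes, summed to 866 to 927 CPM over the 5 libraries. Myd88, the adaptor below the receptor, was at 31.4 and 63.8 CPM, with controls at 72.3, 60.3 and 89.1 CPM and a log2 fold change of -0.63 (SE 0.361; edgeR adjusted p = 0.874), ranging from -1.23 without labelled knockout 2 to -0.24 without labelled knockout 1. Tab1, which binds the kinase TAK1, was at 33.8 and 35.2 CPM, with controls at 26.5, 24.4 and 27.0 CPM and a log2 fold change of 0.41 (SE 0.202; edgeR adjusted p = 0.840).

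Of the 12 other inflammasome sensors 8 were tested, 5 with positive and 3 with negative log2 fold changes, and 3 of these 8, Nlrp1b, Nlrc4 and Naip1, were higher with the knockout label without overlap (9.85% of all genes). Nlrc4, which assembles an inflammasome with NAIP proteins that recognise bacterial flagellin and secretion systems, was at 35.8 and 34.2 CPM, with controls at 13.5, 18.8 and 23.9 CPM and a log2 fold change of 0.90 (SE 0.294; edgeR adjusted p = 0.602). Its values thus went opposite to those of Nlrp3, and its log2 fold change stayed between 0.72 and 1.12 with each library left out. Naip1 was at 0.892 and 5.35 CPM, with controls at 0.126, 0.887 and 0.0743 CPM and a log2 fold change of 3.05 (SE 1.101; edgeR adjusted p = 0.679). Labelled knockout 1 and control 2 were level for Naip1, at 15 and 14 reads, and the log2 fold change ran from 1.24 without labelled knockout 2 to 4.84 without control 2. The Naip genes are close copies, so their reads may be assigned uncertainly. Among triggers and partners, all 6 tested with 4 positive and 2 negative, Nek7, an NLRP3 partner kinase, was at 118 and 113 CPM, with controls at 128, 165 and 158 CPM and a log2 fold change of -0.38 (SE 0.209; edgeR adjusted p = 0.874). P2rx7, the ATP-gated channel that triggers NLRP3, was at 145 and 219 CPM, with controls at 122, 136 and 187 CPM and a log2 fold change of 0.29 (SE 0.293; edgeR adjusted p = 0.924). Among other caspases and pore formers, 5 of 7 were tested, 1 positive and 4 negative, with Gsdme at a log2 fold change of -0.43 (SE 0.366; edgeR adjusted p = 0.924).

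**Figure D5:**
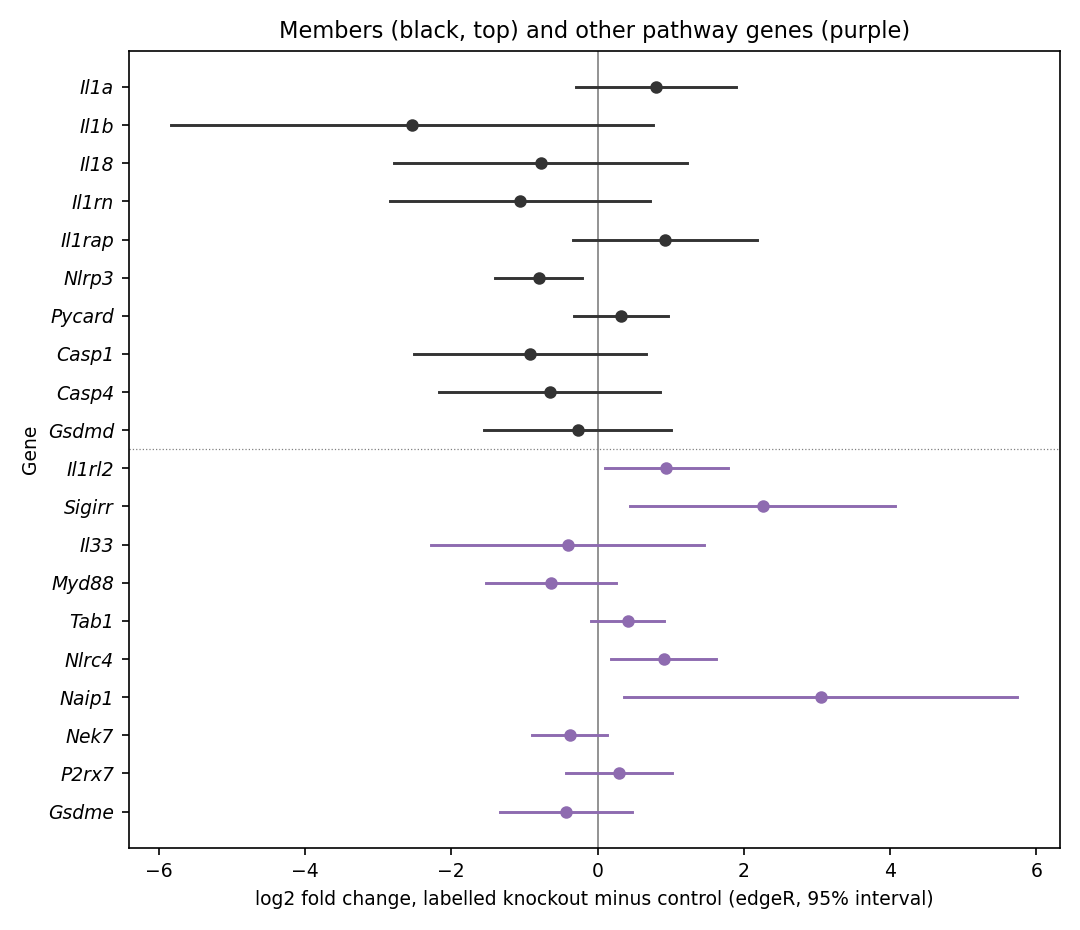
Log2 fold change of the 10 members (black) and of 10 other pathway genes (purple), labelled knockout minus control, with 95% intervals from the edgeR fit. Among the members the interval of Nlrp3 alone lies off 0, and none of these genes passed after adjustment over all genes.

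Per kilobase of exon, the members held very different levels in the controls. Casp1 was highest at 47.2 ± 29.2 CPM per kb (SD, n = 3), followed by Gsdmd at 35.9 ± 10.4, Nlrp3 at 17.9 ± 1.93, Pycard at 15.8 ± 1.17 and Il1rn at 11.5 ± 1.62. Il1b at 7.89 ± 5.37, Il18 at 7.76 ± 5.27, Casp4 at 7.10 ± 3.48, Il1a at 5.13 ± 1.03 and Il1rap at 2.68 ± 0.607 came below them. The ranges of the controls separated Gsdmd from Nlrp3, Pycard from Il1rn and Il1a from Il1rap, and overlapped between all other neighbours in that order. The first place of Casp1 rests on control 3: without it Casp1 averaged 30.3 and Gsdmd 31.5 CPM per kb. Il18 then averaged 5.01 CPM per kb, below Casp4 and Il1a. Exon lengths were the union over annotated transcripts, 11360 bases for Il1rap, so a gene read mostly from a short transcript is understated.

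The genes whose profile over the 5 libraries came closest to that of Il1b, among 8525 others with a mean of at least 10 CPM, were Apoc1, Cd74, Dusp1 and Slamf8, at root mean square distances of 0.92, 1.05, 1.33 and 1.397 on the log2 scale. Apoc1, which encodes an apolipoprotein, stood at 0.297 and 3.62 CPM, with controls at 34.9, 15.5 and 19.6 CPM. Dusp1, which encodes a phosphatase of MAP kinases, stood at 3.99 and 11.5 CPM, with controls at 92.3, 68.4 and 30.1 CPM. For Slamf8 and Cd74 labelled knockout 2 did not lie below every control, though for Cd74 it lay below controls 1 and 2. Slamf8, a receptor of the SLAM family, stood at 3.15 and 42.4 CPM, with controls at 41.5, 37.9 and 23.0 CPM, and Cd74, the invariant chain of MHC class II, at 2.56 and 33.7 CPM, with controls at 99.6, 93.0 and 13.2 CPM. With 5 libraries such a likeness is a description only.

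Of the 10 microglial markers, 9 had counts in every library, and Siglech had 0 in labelled knockout 1 and at most 1.20 CPM elsewhere. The 10 microglial markers summed to 3452 and 4224 CPM in labelled knockouts 1 and 2 and to 5916, 6927 and 5631 CPM in the controls, lower in both of the former, but the members differed: 7 had negative and 3 positive log2 fold changes. P2ry12 (25.2 and 32.5 CPM, with controls at 9.24, 8.81 and 23.0 CPM) and Tmem119 (34.1 and 13.7 CPM, with controls at 11.1, 7.03 and 5.35 CPM) lay above every control. Csf1r, the receptor microglia need to survive, made up much of the sum, at 2372 to 4220 CPM in all libraries, with overlapping groups. Cx3cr1, which also carries the Cre, was at 337 and 97.7 CPM, with controls at 682, 992 and 681 CPM. Neutrophils are a known source of interleukin 1 beta: 5 of their 12 markers, among them Ly6g and S100a9, had 0 counts in every library. The sums were 45.9 and 199 CPM, with controls at 225, 217 and 148 CPM. Most of each sum was Csf3r, the receptor for granulocyte colony-stimulating factor, at 42.4 to 220 CPM. In labelled knockout 2 Mmp8 stood at 23.6 CPM, with 1.78 to 3.72 CPM in the other libraries. Of 10 monocyte markers Chil3 had 0 counts throughout and Ly6c2 at most 0.108 CPM, and the sums, carried by Fn1, ran from 371 to 1810 CPM in the controls with 2319 and 1438 CPM in labelled knockouts 1 and 2. Ace, at 38.5 and 13.1 CPM with controls at 0.943 to 2.45 CPM, and Spn, at 15.2 and 8.32 CPM with controls at 1.51 to 2.79 CPM, were the 2 monocyte markers that DESeq2 called higher (edgeR 0). Markers of border-associated macrophages summed to 564 and 2029 CPM, with controls at 635, 495 and 1358 CPM. Choroid plexus markers summed to 157 and 220 CPM against 7.48 to 26.5 CPM. For 6 of 6 the groups did not overlap, each being higher with the knockout label, where 9.85% of all genes were. DESeq2 called 6 of 6 higher (edgeR 0), where it called 1.68% of all genes in either direction. Endothelial markers summed to 65.2 and 86.2 CPM against 21.6 to 27.4 CPM, with Vwf at 55.6 and 81.8 CPM of them in labelled knockouts 1 and 2. Of the other endothelial markers Pecam1 lay below every control, Cdh5 and Kdr had negative log2 fold changes, and Cldn5 had 0 counts in every library. Fibroblast markers summed to 34.5 and 14.1 CPM against 25.4 to 74.0 CPM, astrocyte markers to 22.8 and 22.5 CPM against 23.4 to 47.6 CPM, oligodendrocyte markers to 12265 and 4543 CPM against 1251 to 10506 CPM, and those of T and NK cells to at most 0.127 CPM. The part of other cell types in the levels of the members was not tested.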

How the data were processed

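RNA of primary mouse microglia was sequenced in 5 libraries. The authors deposited whole-number read counts per gene symbol, 1 column per library; per the submitters' processing notes, FastQC, STAR, HTSeq and the build mm10 were used. Tool versions, annotation and strand setting: not given in the sources used here. Groups came from the titles; the title of control 3 carries a second number, and its library number was used.

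Counts were fitted with edgeR 4.0.16 (R 4.3.3): filterByExpr, TMM factors, robust quasi-likelihood F test, two-sided, Benjamini-Hochberg over 12543 genes, threshold 0.05, 3 residual degrees of freedom. Standard errors and 95% intervals were derived from that F test. DESeq2 1.42.0 and limma-voom (limma 3.58.1), other scalings and filters, a replicate block and leaving out each library were alternatives. CPM used TMM-scaled library sizes; log2 CPM a prior count of 2; ratios 0.5 added to counts. Floors are 3 counts and cover counting error only. Library totals ran from 13947500 to 19577217. Of 21983 symbols 21890 matched 1 gene of GENCODE M21 (GRCm38), used for positions and exon lengths; promoters came from RefSeq (GRCm38.p6). Scripts were tested on simulated data. The members and gene lists were chosen with earlier results of these data known. All members were described, with, per pathway sub-list, the 2 genes of smallest edgeR p, and the 4 genes nearest to Il1b. 1 gene that this rule names is not reported here.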

Additional observations from a re-analysis of the deposited data

How the results depend on the processing

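Of 150 log2 fold changes of the members under 15 alternatives, 147 kept their direction and their side of the threshold, 3 reversed and 0 passed, with a smallest adjusted p of 0.147 over all of them. With each library left out, Il1rap ran from -0.22 to 1.54 and Gsdmd from -1.31 to 0.30, both reversed without labelled knockout 1, and Pycard from -0.072 to 0.60, reversed without labelled knockout 2. Of the pathway genes named, Il33 (-1.69 to 0.25) and P2rx7 (-0.032 to 0.53) reversed without labelled knockout 2. The count of members called was 0 under every alternative run, and 0 to 0 with each library left out. Over all genes 0 were called in edgeR, 232 in DESeq2, 0 to 0 with each library left out, and 4 with the replicate block. The replicate numbers are not stated to pair the libraries. Deviations from the group mean correlated at 0.15 between labelled knockout 1 and control 1, and at 0.56 between labelled knockout 1 and control 2. With 2 libraries in the group, the deviations of labelled knockout 2 mirror those of labelled knockout 1. The -0.56 of labelled knockout 2 with control 2 is therefore no separate check of pairing. With the replicate block the members' median log2 fold change was -0.34, and no member changed its call. Control 3 stands alone in its block and does not enter the group difference there. The median ran from -1.53 to -0.17 with each library left out, and the log2 difference in the Il1b to Il1rn ratio, -3.39, from -5.76 to -1.02. A prior count of 0 gave no ratio, since Il1b had 0 reads in a library. In alternatives chosen after seeing the data, the count of members below every control ran from 3 to 8 and that above from 0 to 3 with each library left out. Shares over all genes were not computed for these settings. Both counts were unchanged by the 3 other scalings. Among alternatives of the same kind, the median of the NF-kB feedback genes ran from -1.41 to 0.0046, reversed without labelled knockout 1. Without labelled knockout 2, Il1b had a fitted log2 fold change of -10.87, which depends on the prior count and is no bound. The cause of these shifts was not tested. With 2 libraries against 3, exact tests cannot pass 0.05, and at 2.02 to 13.7 CPM for Il18 and 0 to 25.8 CPM for Il1b depth adds little error beside the spread between libraries.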
